A study of Drosophila melanogaster with 9 samples.

Results

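Protein-coding genes that were silent in control *Drosophila* testes and were read in quantity when the splicing factor U2af38 was depleted are described here. A gene was taken when it had 2 or more merged exon blocks, at most 3 fragments in each control library and at least 100 fragments in each *U2af38* RNAi library. Genes on chromosomes 4 and Y and genes whose symbol is Or, Gr or Ir plus a digit were left out. The genes were thus selected on their fragment counts in the control and *U2af38* RNAi libraries. These conditions were met by 85 of the 17575 genes in the deposited table, of which 13932 are protein-coding and 11400 meet the conditions on structure, chromosome and symbol. Their values in those 6 libraries are a description and were not tested. The *SRPK* RNAi libraries were not used by the choice.

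Total RNA came from pooled testes of males aged 1 to 3 days, with 3 biological replicates of each genotype. In the RNAi genotypes, a *bam-GAL4* driver expressed a *UAS-RNAi* construct against *U2af38* or *SRPK* in late spermatogonia and spermatocytes (SCs), and control flies came from the *bam-GAL4* parent stock or were siblings of the RNAi flies. *U2af38* RNAi germ cells stop as SCs before the meiotic divisions, whereas *SRPK* RNAi germ cells pass through every stage and give immotile sperm, so the stages present differ between the genotypes. In bulk testes, fewer cells of a type and less RNA per cell cannot be told apart. The labels name no allele or RNAi line and do not say how the replicates were separated, so the p-values below measure the spread between these samples, which may be technical.

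*U2af38* itself was read at 749, 744 and 1006 fragments in control and fell to 60, 118 and 77 in its own RNAi, while *SRPK* RNAi had 1320, 1296 and 1054. *SRPK* was read at 5457, 4369 and 6871 fragments in control and fell to 1703, 1662 and 1511 in its own RNAi, while *U2af38* RNAi had 14874, 15872 and 16328. Each targeted gene was therefore lowest in the libraries labelled for it, with no overlap with control. Counted fragments per library numbered 20908187 to 30002574 (control), 18497748 to 20774681 (*U2af38* RNAi) and 25185322 to 28412334 (*SRPK* RNAi). All 13 markers of testis germ cells were read in every genotype, with summed levels of 5756 to 6667 CPM in control, 2505 to 2548 in *U2af38* RNAi and 4682 to 5415 in *SRPK* RNAi. CPM is the fragment count relative to the library size scaled by the trimmed mean of M-values (TMM), and CPM per kb divides it by the exonic length of the gene, so that levels of different genes can be set side by side.

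U2af38 is the small subunit of U2AF, which recognizes the 3′ end of introns so that the spliceosome can assemble there. SRPK is a kinase that phosphorylates the arginine- and serine-rich domains of splicing proteins. SCs transcribe a large part of the genome under a program of their own, whereas chorion, phototransduction and cuticle genes are known for their expression in ovary, eye and epidermis.

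Silence in control was common, and most silent genes stayed well under the level that chose the 85. Of the 11400 genes, 1260 had at most 3 fragments in each control library. For 350 of these, fewer than 90% of the exonic bases are free of exons of another gene on the same strand, where fragments were not counted, so the comparison below uses the other 910. In *U2af38* RNAi, 85 of the 910 (9.34%) reached 100 fragments in every library, 717 (78.8%) lay between, and 108 (11.9%) still had at most 3 fragments in each library. The 825 silent genes that were not taken had a median of 17.3 fragments per *U2af38* RNAi library, against 0.333 in control and 1.00 in *SRPK* RNAi. None of the 910 reached 100 fragments in every *SRPK* RNAi library.

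**Figure D1:**
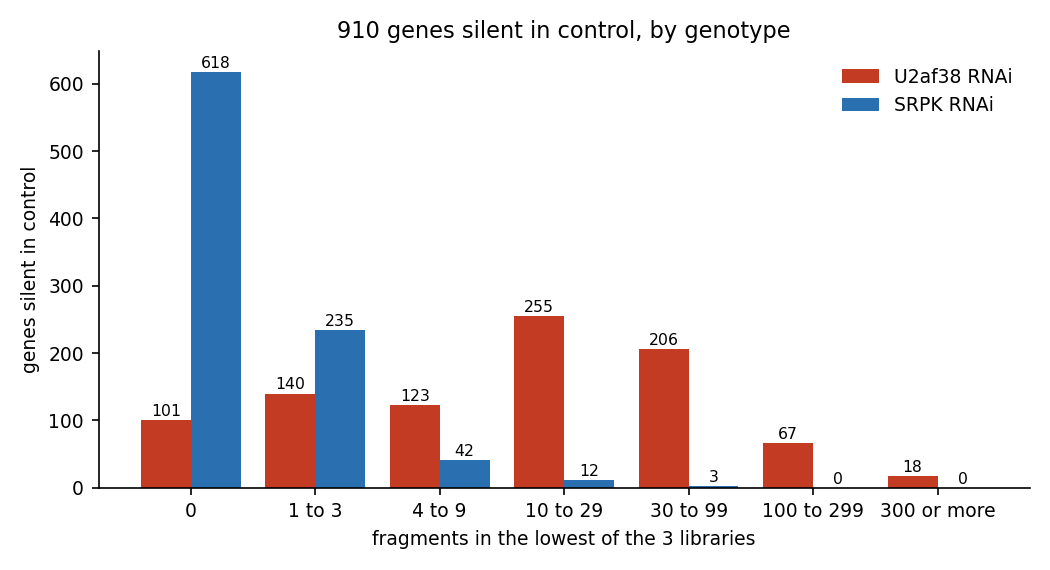
Genes silent in control (910, vertical axis) by the fragments in the lowest of the 3 libraries of a genotype (horizontal axis), for *U2af38* RNAi (red) and *SRPK* RNAi (blue). The 67 and 18 genes in the last pair of red bars are the 85 genes described here, and both blue bars there are at 0.

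Together the 85 genes took 82, 73 and 80 fragments in the control libraries and 19056, 20274 and 21560 in *U2af38* RNAi. The latter are 0.103%, 0.0976% and 0.113% of all counted fragments. In *SRPK* RNAi the sums were 346, 387 and 276 fragments. No fragment at all was read for 15 of the genes in the 3 control libraries, and a single fragment for 19 more. The level in *U2af38* RNAi ran from 1.01 to 26.3 CPM per kb, with a median of 4.61 and quartiles of 2.92 and 6.54. The median over all 14941 genes tested was 5.83 CPM per kb in the same libraries. The 85 had been chosen with at least 100 fragments in each of these libraries, so a level near that median is partly set by the choice.

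The coefficient of variation over the 3 libraries had a median of 10.7% (0.531% to 31.0%), beside 7.22% for the 5785 tested genes with a mean count in the same range. Those genes were not matched on count within the range. Counting error alone gives 7.60% at 173 fragments, the median count of the 85. Of the 85 genes, 61 were highest in the *U2af38* RNAi replicate 3 library, 15 in replicate 1 and 9 in replicate 2, and the summed level was 869 CPM in replicate 3 against 782 and 752. Without replicate 3, 86 genes met the conditions, but leaving out a library can only keep or raise this number.

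The highest level per kb was that of *CG45072* (FBgn0266442, chromosome 3R of dm6, 30122023 to 30123263), with 0, 2 and 2 fragments in control and 734, 782 and 732 in *U2af38* RNAi. *CG7201* (FBgn0035865, 3L, 8290286 to 8295327), next in order, had 2, 1 and 0 fragments in control and 714, 863 and 787 in *U2af38* RNAi. Their levels were 26.3 ± 0.51 and 18.7 ± 0.89 CPM per kb (SD, n = 3). *Cht7*, which encodes a chitinase of the cuticle, had the most fragments of all, 1085, 1031 and 1058 against 2, 2 and 1 in control. *Wnt10*, a secreted ligand of the Wnt family, had 3, 2 and 0 fragments in control and 529, 549 and 620 in *U2af38* RNAi, which is 9.41 ± 1.0 CPM per kb (SD, n = 3). Of the 20 genes with the highest level per kb, 15 carry a CG number as their symbol, and the other 5 are *Cht7*, *Wnt10*, the chorion genes *Cp7Fb* and *Cp7Fc* and the cuticle gene *TwdlX*.

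**Figure D2:**
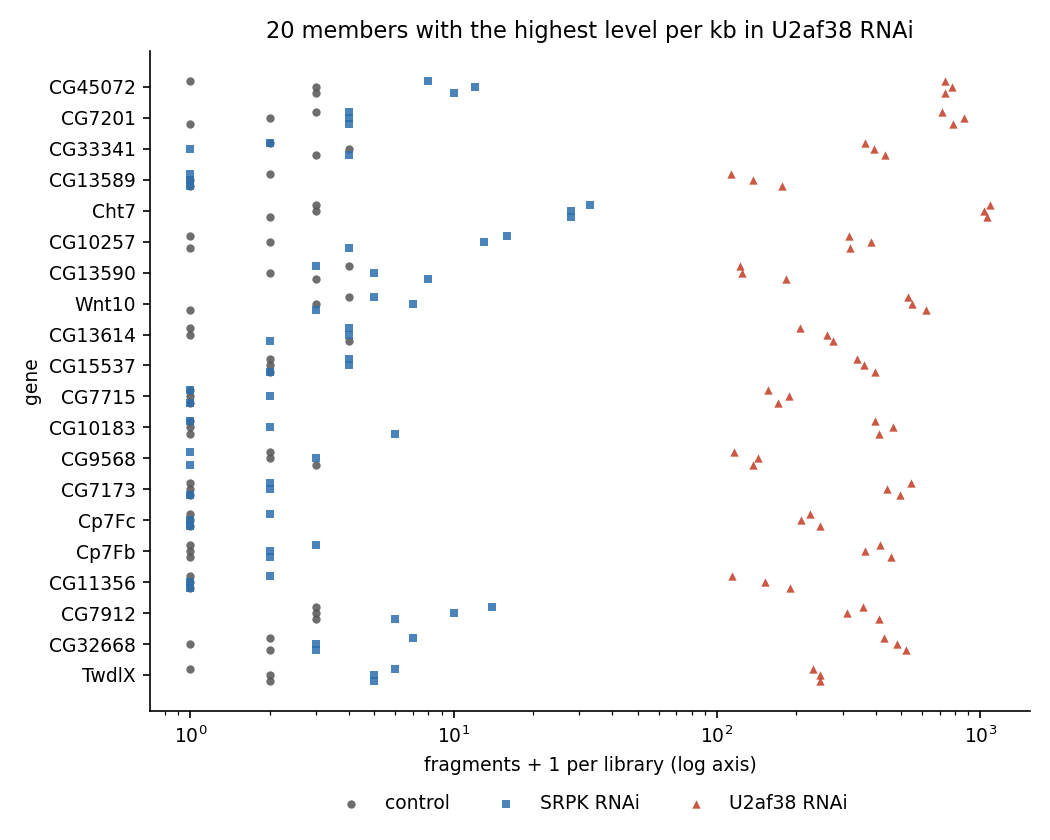
Fragments + 1 (horizontal log axis) in each of the 9 libraries for the 20 genes (vertical axis) with the highest level per kb in *U2af38* RNAi, with control as grey circles, *SRPK* RNAi as blue squares and *U2af38* RNAi as red triangles, replicates 1 to 3 from top to bottom. Every *U2af38* RNAi point lies above 100 fragments, and the highest *SRPK* RNAi point, 32 fragments for *Cht7*, lies below all of them.

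Chorion proteins form the outer eggshell and are made by the follicle cells of the ovary. Their genes lie in a cluster on the X and another on 3L, both of which follicle cells amplify before they transcribe them. All 4 chorion genes among the 85 belong to the X cluster. *Cp7Fb* (FBgn0014465, X, 8473837 to 8476071) had 0 fragments in each control library and 414, 365 and 457 in *U2af38* RNAi, at least 336-fold higher against a floor of 3 fragments over the control group. *Cp7Fc* (FBgn0014466, X, 8477117 to 8478320) had 0 fragments in control and 225, 207 and 244 in *U2af38* RNAi, at least 184-fold higher. *Cp36* (FBgn0000359, X, 8479319 to 8480523) had 0 fragments in control and 126, 142 and 142 in *U2af38* RNAi, at least 111-fold higher. *Cp38* (FBgn0000360, X, 8481837 to 8483311) went from 1, 1 and 2 fragments to 123, 111 and 127. In *SRPK* RNAi the 4 genes had between 0 and 4 fragments per library, which overlapped control for *Cp7Fc*, *Cp36* and *Cp38*.

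The neighboring *Cp7Fa*, whose start is 2.95 kb before that of *Cp7Fb*, missed the control limit with 7, 5 and 6 fragments and had 185, 173 and 234 in *U2af38* RNAi. All 5 genes of the X cluster thus stood between 3.81 and 7.88 CPM per kb in *U2af38* RNAi along 12.4 kb. Of the 3L cluster, *Cp15* and *Cp18* could be tested. *Cp15* had 217, 171 and 328 fragments in control and 175, 171 and 181 in *U2af38* RNAi, and *Cp18* had 33, 38 and 67 in control and 39, 33 and 48 in *U2af38* RNAi. *Cp15* was lower (log2 change -0.71, SE 0.14, adjusted p = 0.00038, edgeR), *Cp18* did not pass the test (adjusted p = 0.121), and *Cp16* (3, 1 and 1 fragments in control, 0, 6 and 2 in *U2af38* RNAi) and *Cp19* (0, 0 and 1, then 0, 2 and 6) were not tested. Over the fixed list of 13 ovary and eggshell genes, 9 had at most 3 fragments in each control library and 1 in each *U2af38* RNAi library. The summed level was 20.3 to 26.3 CPM in control, 48.2 to 59.4 in *U2af38* RNAi and 18.8 to 20.3 in *SRPK* RNAi. These counts and sums include *Cp7Fb*, *Cp7Fc*, *Cp36* and *Cp38*, which were chosen low in control and high in *U2af38* RNAi. There they averaged 16.3, 8.92, 5.39 and 4.76 CPM, so nothing is read from the higher sum. Of the 9 genes of that list outside the 85, 7 were tested in *U2af38* RNAi, with 3 higher and 3 lower, beside 44.7% and 37.5% of all genes tested. A gene low in control, such as *psd* (1, 1 and 1 fragments), enters the test mainly through its RNAi counts, so nothing is read from these calls. The vitelline membrane gene *Vm34Ca* had 0, 0 and 0 fragments in control and 29, 39 and 23 in *U2af38* RNAi.

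**Figure D3:**
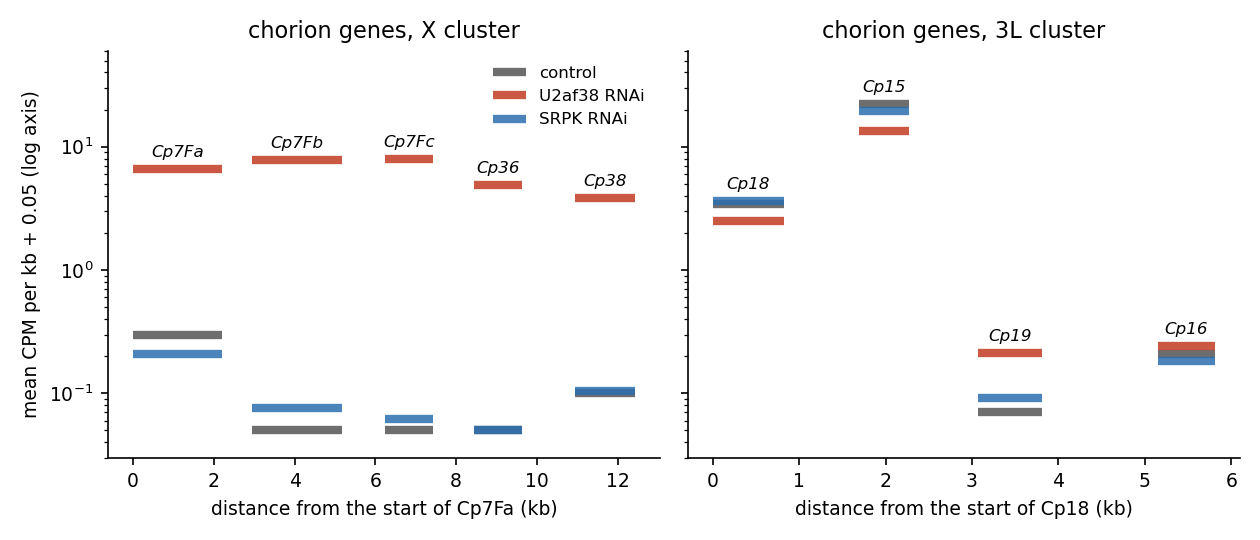
Mean level of the chorion genes (CPM per kb + 0.05, vertical log axis) against distance from the start of the leading gene of each cluster (kb), with a bar spanning each gene for control (grey), *U2af38* RNAi (red) and *SRPK* RNAi (blue). The 5 genes of the X cluster lie between 3.81 and 7.88 CPM per kb in *U2af38* RNAi, whereas the red bars of the 3L cluster lie below the grey ones for *Cp18* and *Cp15*.

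The photoreceptor genes among the 85 were *trp*, *inaC* and *Arr2*. *trp*, the light-activated calcium channel, had 3, 3 and 1 fragments in control, 324, 324 and 421 in *U2af38* RNAi, against 55, 41 and 33 in *SRPK* RNAi. *inaC*, the eye-specific protein kinase C, had 1, 1 and 0 fragments in control, 118, 105 and 123 in *U2af38* RNAi, against 1, 3 and 0 in *SRPK* RNAi. *Arr2*, the arrestin that binds activated rhodopsin, had 0, 0 and 1 fragments in control, 104, 104 and 149 in *U2af38* RNAi, against 0, 1 and 1 in *SRPK* RNAi. In *SRPK* RNAi, *trp* did not overlap control, and *inaC* and *Arr2* did. Of the fixed list of 13 photoreceptor genes, 5 had at most 3 fragments in each control library, none in each *U2af38* RNAi library and 2 in each *SRPK* RNAi library. The summed levels were 104 to 115 CPM (control), 121 to 134 (*U2af38* RNAi) and 91.0 to 101 (*SRPK* RNAi). These counts and sums include *trp*, *inaC* and *Arr2*, which were chosen low in control and high in *U2af38* RNAi. There *trp* and *Arr2* averaged 14.1 and 4.71 CPM, so nothing is read from the higher sum. Of the 10 listed genes outside the 85, 6 were higher and 3 lower in *U2af38* RNAi, where 82.2% of all tested genes changed, 44.7% higher and 37.5% lower (edgeR's quasi-likelihood test, Benjamini-Hochberg adjustment, threshold 0.05). Here too, listed genes low in control enter the test mainly through their RNAi counts, so nothing is read from these calls. The main rhodopsin gene *ninaE* had 1, 8 and 5 fragments in control and 47, 51 and 51 in *U2af38* RNAi, whereas the other arrestin gene, *Arr1*, went from 1118, 1040 and 1371 down to 179, 190 and 195.

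Among the 85 were 6 genes for transcription factors of the embryo and nervous system. The homeobox gene *slou*, a marker of muscle founder cells, had 0, 1 and 1 fragments in control, 270, 371 and 371 in *U2af38* RNAi, against 20, 24 and 15 in *SRPK* RNAi. *vnd*, which patterns the ventral neuroectoderm, had 0, 0 and 1 fragments in control, 153, 163 and 154 in *U2af38* RNAi, against 5, 7 and 3 in *SRPK* RNAi. For both genes every *SRPK* RNAi library was above every control library. *al*, a homeobox gene of the leg and antenna tips, had 0, 1 and 0 fragments in control and 235, 242 and 255 in *U2af38* RNAi. The Hox gene *Scr*, which sets the identity of the labial and foremost thoracic segments, had 2, 3 and 1 fragments in control and 175, 183 and 203 in *U2af38* RNAi. These 4 are all the homeobox and segmentation genes among the 85, out of 67 such genes in the table by their symbols, 11 of which were silent in control. Of all silent genes with unshared exons, 9.34% were taken, and the numbers of this family are small. The zinc finger gene *cas*, a late temporal factor of embryonic neuroblasts, went from 1, 0 and 2 fragments to 408, 438 and 357, and *HLH4C*, a basic helix-loop-helix gene, from 0, 0 and 0 to 143, 136 and 149. In *SRPK* RNAi, *al*, *Scr*, *cas* and *HLH4C* had between 0 and 7 fragments per library.

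Ligands and receptors made a further group of 7 with *Wnt10*. *spz6*, a gene of the Spätzle family of Toll ligands, had 2, 2 and 1 fragments in control and 103, 127 and 169 in *U2af38* RNAi. *CrzR*, the receptor of the neuropeptide corazonin, had 0, 2 and 1 fragments in control and 217, 189 and 224 in *U2af38* RNAi. *CrzR* was the only gene of the 85 among 86 neuropeptide and amine signaling genes of the table, 9 of which were silent in control. The share taken of all silent genes with unshared exons was 9.34%. *Grd*, a subunit of the ligand-gated chloride channel family, had 2, 2 and 3 fragments in control, 131, 171 and 166 in *U2af38* RNAi, against 6, 14 and 6 in *SRPK* RNAi. *Gyc89Da*, an atypical soluble guanylyl cyclase, and the neighboring gustatory-receptor-like genes *Grl62a* and *Grl62b* had 133 to 204 fragments per *U2af38* RNAi library, and the symbols of the latter pair fall outside the families left out. Over the fixed list of 16 neuronal genes, none of which is among the 85, the summed level was 159 to 166 CPM in control, 364 to 404 in *U2af38* RNAi and 162 to 178 in *SRPK* RNAi, and 11 of the 15 tested were higher in *U2af38* RNAi and 3 lower, beside 44.7% and 37.5% of all genes tested. The part of neurons in the levels of these genes was not tested.

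Of 137 cuticle genes in the table by symbol, 54 were silent in control and 2 were among the 85, beside the 9.34% taken of all silent genes with unshared exons. That share was 6.75% with shared exons allowed. By length it ran from 2.11% under 1 kb of exons to 30.3% with 2 kb or more. The lengths of the cuticle genes were not compared, so no shortage is read from their number. *Cht7* stood at 41.8 ± 3.2 CPM in *U2af38* RNAi (SD, n = 3) and was read at 32, 27 and 27 fragments in *SRPK* RNAi. *TwdlX*, a gene of the Tweedle family of cuticle proteins, had 0, 1 and 1 fragments in control, 230, 245 and 246 in *U2af38* RNAi, against 5, 4 and 4 in *SRPK* RNAi. Another gene of the epidermis, *dy*, whose product shapes wing cells under the cuticle, had 1, 0 and 0 fragments in control and 180, 196 and 202 in *U2af38* RNAi.

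Transport genes were *Irk3*, *Oatp33Eb* and *MFS1*. *Irk3*, an inward rectifier potassium channel known from the Malpighian tubule, had 1, 0 and 0 fragments in control, 148, 146 and 208 in *U2af38* RNAi, against 1, 15 and 1 in *SRPK* RNAi. The *SRPK* RNAi replicate 2 library also stood apart for *fiz* (2, 21 and 3 fragments), a gene for an oxidoreductase, and for *CG3285* (0, 8 and 0). It stood apart in the same way for *salt*, a gene on the fixed list of 5 Malpighian tubule genes, with 4, 0 and 2 fragments in control, 293, 349 and 420 in *U2af38* RNAi, against 0, 38 and 0 in *SRPK* RNAi. *Irk3* is on that list too and was chosen low in control and high in *U2af38* RNAi. The summed level of the list was 43.3 to 51.8 CPM in control, 56.0 to 68.2 in *U2af38* RNAi and 33.7 to 40.4 in *SRPK* RNAi. Of its 4 other genes, 3 were higher and 1 was lower in *U2af38* RNAi, beside the same 44.7% and 37.5%, and the part of tubule cells was not tested. *salt*, low in control, enters that test mainly through its RNAi counts, so nothing is read from these calls. *Oatp33Eb*, an organic anion transporter, had 0 fragments in each control library and 311, 377 and 349 in *U2af38* RNAi, at least 282-fold higher, and the major facilitator gene *MFS1* had 0 in control and 126, 135 and 147 in *U2af38* RNAi, at least 111-fold higher.

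Metabolic genes and hormone carriers were *fiz*, *Hpd* for a dioxygenase of tyrosine breakdown, the glycosyltransferase gene *Ugt35D1* and *Jhbp3* of the juvenile hormone binding family, with 107 to 437 fragments per *U2af38* RNAi library. The remaining named genes were *cmpy*, a regulator of BMP signaling at motor neurons, *mmd* for a metalloprotease of the ADAM family, *CARPA* for a protein related to carbonic anhydrase, the kinesin gene *Kif19A*, *trv* and *kairos*. They had 101 to 386 fragments per library in *U2af38* RNAi. *CARPA* had the least spread of the 85 genes, 345, 386 and 353 fragments or 14.2 ± 0.076 CPM (SD, n = 3), and *trv* the widest, 196, 266 and 361 fragments or 10.8 ± 3.4 CPM (SD, n = 3). None of the 85 was a named odorant-binding or chemosensory gene (27 silent in control), pickpocket channel gene (9), antimicrobial peptide gene (6), P450 gene (5) or tetraspanin gene (5), beside the 9.34% taken of all silent genes with unshared exons, and these numbers are too small to read an absence from. The dpr and DIP, nicotinic receptor and glutamate receptor families had no silent gene.

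The other 49 genes carry a CG number as their symbol and stood between 1.52 and 26.3 CPM per kb in *U2af38* RNAi, with a median of 4.99. RefSeq synonyms give some of them a class. *CG9733* (synonym SP10) is listed as a serine protease, and *CG9377*, *CG18420* and *CG4650* (SPH166, SPH111 and SPH197) as serine protease homologs, and these 4 had 105 to 232 fragments per *U2af38* RNAi library. *CG4650* had 0 fragments in all 6 control and *SRPK* RNAi libraries and 117, 110 and 126 in *U2af38* RNAi. *CG15537* (synonym crhbp) went from 1, 1 and 1 fragments to 338, 361 and 396, *CG11356* (synonym Arl13b) from 0, 0 and 0 to 113, 151 and 188, and *CG31345* (synonym CBP9) from 0, 0 and 0 to 151, 175 and 164.

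Genes with nearly the same counts lay on both sides of each limit. The genes just inside the control limit were *Kif19A* (3, 3 and 3 fragments), *CG6901* (3, 3 and 1) and *trp*. Just outside it were *Cyp4d21* (4, 0 and 0), *PH4alphaSG1* (1, 0 and 4) and *CapaR* (0, 1 and 4), which had 111 to 614 fragments per *U2af38* RNAi library. At the other limit, *cmpy* (108, 101 and 120 fragments in *U2af38* RNAi), *spz6* and *Arr2* were just inside, and *Mco1* (98, 103 and 98), *psd* (98, 104 and 104) and *CG42329* (98, 126 and 151) just outside.

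The 85 genes were longer than the other silent genes. Their exonic length had a median of 1857 bp (quartiles 1267 and 2683), against 904 bp (600 and 1428) for the 825 other silent genes and 2045 bp for the 9896 genes not silent in control. The share taken was 2.11% of 474 silent genes with under 1 kb of exons, 11.5% of 304 genes with 1 to 2 kb and 30.3% of 132 genes with 2 kb or more. The limit of 100 fragments asks for a lower level per kb from a longer gene, and the median level per kb of all silent genes in *U2af38* RNAi was 0.933, 0.793 and 0.755 CPM per kb in these classes. Exon blocks numbered 4 at the median (2 for the other silent genes), and the longest gap between blocks, a stand-in for the longest intron, was 327 bp (71 bp). Genes with a gap of 1 kb or more made up 28.2% of the 85 and 8.36% of the others. Within the silent genes of at least 1 kb of exons, the share taken was 13.5% of 178 genes with a gap under 100 bp, 16.8% of 173 with a gap of 100 bp to 1 kb and 25.9% of 85 with a longer gap. The median level of all silent genes in these gap classes was 0.620, 0.930 and 0.935 CPM per kb in *U2af38* RNAi. Exonic length still varies within the classes, and the fragment limit favors longer genes, so a part of the gap itself was not tested.

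**Figure D4:**
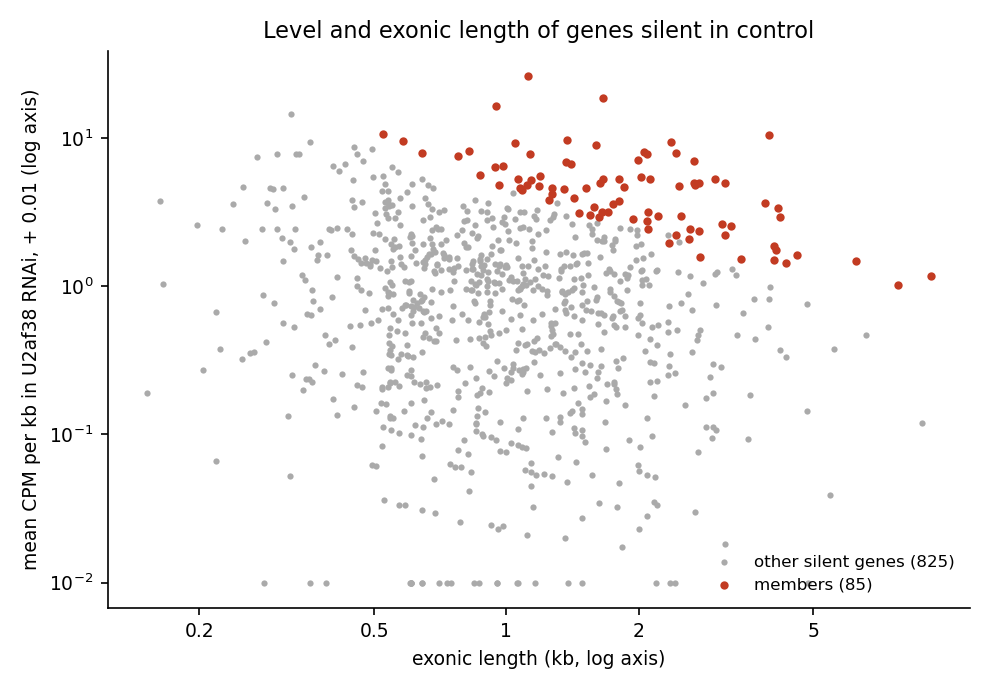
Mean level in *U2af38* RNAi (CPM per kb + 0.01, vertical log axis) against exonic length (kb, horizontal log axis) for the 910 genes silent in control, with the 85 genes described here in red and the other 825 in grey. The lower edge of the red points falls with length because the limit is set on fragments, and short genes at 4.61 CPM per kb, the median of the red points, can remain grey.

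The genes were spread over the arms, with 28 on 3R, 20 on X, 15 on 3L, 12 on 2L and 10 on 2R. These are 12.4% of the silent genes on 3R, 11.8% on X, 9.30% on 2L, 7.14% on 3L and 5.71% on 2R. Within 10 kb of another of the 85 lay 15 of them, in the chorion cluster, the pairs *Grl62a* and *Grl62b*, *CG13589* and *CG13590*, *CG13614* and *CG33341* and *CG9377* and *CG9395*, and the run of *CG10182*, *CG33337* and *CG10183*. *CG33337* had 276, 298 and 284 fragments in *U2af38* RNAi, *CG10182* had 142, 157 and 202 and *CG10183* had 397, 463 and 410, against 0 to 3 in control.

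The nearest gene upstream on the same strand lay within 1 kb for 22 of the 85 genes (25.9%), against 39.3% of the other silent genes. Of these 22 upstream neighbors, 5 are themselves among the 85. The other 17 were tested in *U2af38* RNAi, and 16 of them were higher and none lower (edgeR's quasi-likelihood test, adjusted p under 0.05), beside 44.7% of all tested genes and 66.4% of the 223 such neighbors of other silent genes. Of the 17, 9 had a mean under 1 CPM in control and all of those 9 were higher. With control that low, a gene enters the test mainly through its counts in an RNAi genotype, so nothing is read from those 9 calls. *CapaR*, the receptor of Capa neuropeptides, ends 747 bp before *CG7173* and had 594, 614 and 595 fragments in *U2af38* RNAi, while *CG7173* went from 0, 0 and 0 to 543, 440 and 493. *CG45073* ends 537 bp before *CG45072* and went from 8, 14 and 5 fragments to 705, 828 and 772. *PH4alphaSG1*, a prolyl hydroxylase gene named for the salivary gland, ends 158 bp before *CG31371* and had 228, 231 and 236 fragments in *U2af38* RNAi, beside 133, 168 and 179 for *CG31371*. *CG10348*, 704 bp before *Irk3*, was the exception, with 799, 660 and 894 fragments in control and 868, 964 and 908 in *U2af38* RNAi (adjusted p = 0.262, edgeR). Exonic fragments do not show where transcription began, so transcripts that run through neighboring genes cannot be told apart from separate ones.

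None of the 85 genes lies within another gene on its own strand, and 18 (21.2%) lie within a gene on the opposite strand, against 15.4% of the other silent genes. The 4 chorion genes all lie within *CG33223*, which had 1690, 1601 and 2120 fragments in control and 1376, 1443 and 1288 in *U2af38* RNAi. Of the 18, counting *CG33223* 4 times, 11 had a host that was lower in *U2af38* RNAi and 6 a host that was higher, beside 37.5% and 44.7% of all genes tested, and 4 of the 11 share *CG33223*. Counting was strand-specific, and exons of 11 of the 85 genes overlap exons on the opposite strand.

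The *SRPK* RNAi libraries were examined to see whether the same genes were read when another splicing regulator was depleted. Of the 85 genes, 41 (48.2%) had at most 3 fragments in each *SRPK* RNAi library, 13 (15.3%) had more than 3 in each, and none reached 100. Of the 825 other silent genes, which are shorter, 70.5% had at most 3 fragments in each *SRPK* RNAi library and 5.33% had more than 3 in each. The highest value of any gene was 55 fragments, for *trp*, so every *U2af38* RNAi library exceeded every *SRPK* RNAi library for all 85. Over all genes tested, 79.9% differed between *U2af38* RNAi and *SRPK* RNAi and 42.3% were higher in *U2af38* RNAi, but the *U2af38* RNAi libraries had been chosen high for the 85, and nothing is read from that comparison. The *SRPK* RNAi level was 1.09% of the *U2af38* RNAi level at the median and 12.5% at most, again for *trp*, followed by *CG31345* at 10.9%.

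Against control, 17 of the 85 were higher in *SRPK* RNAi, beside 20.3% of all 14941 genes tested and 10.6% of the 490 other silent genes tested (edgeR's quasi-likelihood test, adjusted p under 0.05). The count was 30 when scaled by library size only and 7 with a minimum log2 change of 1. All 85 passed the filter on low counts, which their *U2af38* RNAi counts ensured. The control libraries had been chosen low, so these calls are not independent of the choice. None was lower by edgeR or DESeq2, beside 21.1% of all genes tested and 0 of the 490 other silent genes tested (edgeR). At an unadjusted p under 0.05 there were 31 higher and 1 lower, and the shares over all genes were not taken. The lower gene was *CG10081*, with 1, 3 and 2 fragments in control and 1, 0 and 0 in *SRPK* RNAi. It was called lower without *SRPK* RNAi replicate 1. With control chosen low, a fall had little room, so nothing is read from the direction of these calls. Every *SRPK* RNAi library was above every control library in CPM for 21 genes (24.7%), beside 25.3% of all genes tested and 14.3% of the 490. The median log2 change of the 85 was 1.16, beside 0.61 for the 490 other silent genes tested and 0.0070 over all genes tested. The 490 are also low in control. With genes at 0 in control set to the floor, the median of the 85 was 0.77, and the floor was not applied to the 490.

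The clearest of these were *trp*, *Cht7*, *slou* and *CG31345*. For *trp* the log2 change was 3.90 (SE 0.39, adjusted p = 1.26e-05, edgeR). For *Cht7*, read at 27 to 32 fragments, it was 3.79 (SE 0.29, adjusted p = 1.76e-06, edgeR). For *slou* it was 4.44 (SE 0.49, adjusted p = 2.57e-05, edgeR), and with 2 control fragments in all the ratio of CPM was 25.2 (95% exact counting interval 6.67 to 213). *CG31345* had 14, 21 and 16 fragments in *SRPK* RNAi and none in control, at least 14.5-fold higher (adjusted p = 2.78e-05, edgeR). These 4 calls and that of *trv* held in every setting, and they are the 5 of the 85 genes that pass the filter with control and *SRPK* RNAi alone. With control chosen low, a gene passes there only through its *SRPK* RNAi counts, so that setting adds no support. The called genes other than these 5 pass the filter only through their *U2af38* RNAi counts, which chose them. Of those, *CG10257* and *CG13856* kept their calls in the settings that tested them.

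The other calls rested on fewer fragments. *trv* had 0, 1 and 2 fragments in control and 17, 15 and 11 in *SRPK* RNAi (adjusted p = 0.000769, edgeR), and *CG10257* had 0, 1 and 0 in control and 15, 12 and 3 in *SRPK* RNAi (adjusted p = 0.00167). *CG13856* had 6, 6 and 7 fragments in *SRPK* RNAi against 0, 0 and 1 (adjusted p = 0.00114, edgeR). *CG45072* had 7, 11 and 9 (adjusted p = 0.00146) and *CG7912* had 13, 9 and 5 (adjusted p = 0.00775, edgeR). *CG9733* had 7, 11 and 3 fragments and *vnd* 5, 7 and 3, with adjusted p-values of 0.00524 and 0.00357 (edgeR). *CG31371* had 3, 3 and 3 fragments against none in control, at least 2.56-fold higher (adjusted p = 0.0039, edgeR). *Grd* lost its call without *SRPK* RNAi replicate 2 (adjusted p = 0.153, edgeR), *TwdlX* without *SRPK* RNAi replicate 1 (0.0519) or control replicate 1 (0.0954), and *CG9377* without *SRPK* RNAi replicate 1 (0.0547) or control replicate 3 (0.0728). The last of the 17 were *Oatp33Eb* (2, 4 and 2 fragments, adjusted p = 0.00661, edgeR) and *CG33124* (4, 4 and 1, adjusted p = 0.0485). *CG33124* lost its call without control replicate 2 (0.127) or 3 (0.154), *SRPK* RNAi replicate 1 (0.142) or 2 (0.110), or *U2af38* RNAi replicate 1 (0.0592) or 3 (0.0594), and also with DESeq2 (0.0771), upper-quartile scaling (0.0504), no filter (0.0516) or the replicate block (0.0529). *TwdlX* also lost its call with DESeq2 (0.0686).

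**Figure D5:**
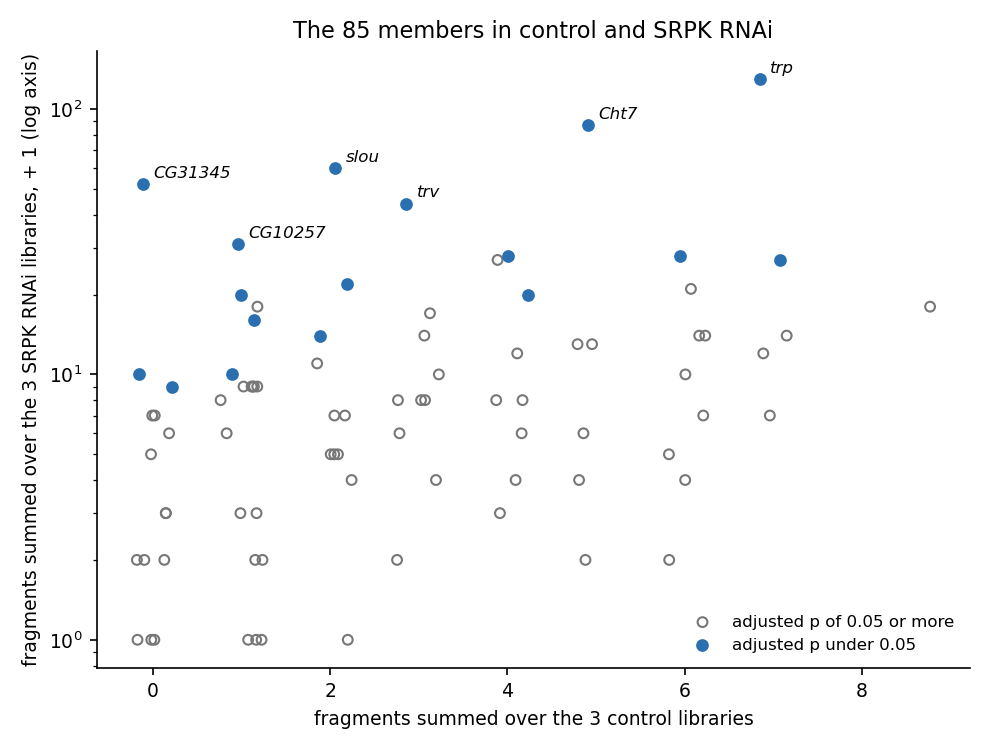
Fragments summed over the 3 *SRPK* RNAi libraries, + 1 (vertical log axis), against fragments summed over the 3 control libraries (horizontal axis, points spread sideways to separate them) for the 85 genes. Filled points are the 17 genes with an adjusted p under 0.05 by edgeR, and the 6 with 30 or more *SRPK* RNAi fragments in all are named, *trp* being the highest.

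Summed levels of the remaining marker lists were compared by their ranges, with no test of a list. The 5 hemocyte genes summed to 19.3 to 38.2 CPM in control, 271 to 290 in *U2af38* RNAi and 53.2 to 72.4 in *SRPK* RNAi, with *Hml* at 5668, 6149 and 6168 fragments in *U2af38* RNAi, and none of the 5 is among the 85. The 12 gut genes summed to 25.2 to 82.0, 126 to 156 and 160 to 269 CPM in the same order. The 5 glial genes summed to 115 to 132, 118 to 124 and 109 to 129 CPM. The 14 muscle genes summed to 1574 to 2328 CPM in control and 1520 to 1743 in *U2af38* RNAi, and the 9 fat body genes to 129 to 202 and 43.7 to 44.7. The 6 cyst and hub genes summed to 229 to 241 and 189 to 196 CPM, and the 16 accessory gland and duct genes to 172 to 665 and 76.6 to 410. The part of any such tissue in the levels of the 85 genes was not tested.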

How the data were processed

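Testes of 3 genotypes were sequenced, with 3 biological replicates each and 2 lanes per library. Per the labels and the methods of the study, the authors extracted total RNA, depleted rRNA from 500 ng and made stranded libraries, aligned them with STAR 2.7.1a to dm6 and deposited raw fragment counts per gene and lane from featureCounts 1.6.2 with the FlyBase 6.37 annotation. Only exonic fragments were counted, and those that mapped to several places or to exons of several genes were not, so genes with shared exons read low.

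Lanes were summed per library after a check that they differed far less than replicates did (chi-square per degree of freedom 1.28 to 1.37, against 6.17 to 39.2). Symbols and gene types came from Ensembl 115 (BDGP 6.54), which matched 17512 of 17575 identifiers, and synonyms from RefSeq. Genes were filtered with filterByExpr, scaled by TMM and tested in edgeR 4.0.16 (R 4.3.3) by the quasi-likelihood test over all 9 libraries, with Benjamini-Hochberg adjustment over the 14941 genes tested and a threshold of 0.05. DESeq2 1.42.0 was an alternative, as were other scalings, filters, limits, a replicate block and leaving out each library. The standard error was taken from the log2 change and its F statistic. Summaries used Python 3.11.15 with pandas 2.3.3 and SciPy 1.17.1, and the test was tried on simulated counts. Against a control at 0, folds used a floor of 3 fragments over the group. Intervals and floors cover counting error only.

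The genes, the marker lists and the gene families were chosen with earlier results of these data known, and the role groups were set after the values were seen. Genes named were the targeted genes, the 20 with the highest level per kb, those with a given name, those called in *SRPK* RNAi and those next to the limits or to neighbors. Others that are named were chosen after their values were seen.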

Additional observations from a re-analysis of the deposited data

How the results depend on the processing

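The number of genes that met the conditions followed the limits. It was 15 with no control fragment allowed, 184 with up to 10, 192 with at least 50 *U2af38* RNAi fragments and 30 with at least 200. It was 49 with limits on scaled CPM (0.15 and 5), and 53 and 51 with lane 1 or lane 2 alone, where depth is lower by construction. With each control or *U2af38* RNAi library left out it was 86 to 107, and leaving out a library can only keep or raise it. The share of the silent genes, 9.34%, was 6.75% with shared exons allowed, a choice made after seeing the data.

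The 17 genes higher in *SRPK* RNAi became 30 scaled by library size only, where the median log2 change of all genes moved from 0.0070 to 0.12. They became 7 with a minimum log2 change of 1, 17 with DESeq2 (15 shared) and 16 to 22 with each library left out. With control and *SRPK* RNAi alone 5 of the genes passed the filter, all 5 were higher, and their median log2 change was 3.90. With control chosen low, a gene passes there only through its *SRPK* RNAi counts, so nothing is read from that direction. Leaving out a library gave 0 to 1 lower. Genes at no more than the limit in each *SRPK* RNAi library numbered 7 with a limit of 0 and 73 with a limit of 10. With a minimum log2 change of 1, 440 of all genes changed in *SRPK* RNAi and 6283 in *U2af38* RNAi.

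Same-numbered libraries correlated best in 6 of 18 comparisons, which gives no sign of pairing by replicate number but cannot exclude it. With a replicate block 16 of the genes were higher in *SRPK* RNAi, with a median log2 change of 1.13, and over all genes 6331 changed in *SRPK* RNAi and 12213 in *U2af38* RNAi. A minimum of 10 counts in every library left none of the 85 and was not run for them, and no promoter motif was searched. Among the 17 genes higher in *SRPK* RNAi, whose changes were recomputed one by one, no direction reversed in the settings that tested them.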

Other observations

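Genes with a single exon block lie outside the conditions. Of 491 such genes that were silent in control and had at least 90% of their exonic bases unshared, 12 (2.44%) had at least 100 fragments in each *U2af38* RNAi library, beside 9.34% of those with 2 or more blocks. Their lengths were not compared.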
